A study of Mus musculus with 6 samples.

Results

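The genes described here are the Bcl2 family, the caspases and the inhibitors of apoptosis in bone marrow of mice with HoxA9/Meis1-driven disease. The list holds 42 genes. A gene was measured where at least 1 probe set of the array carried its symbol and no other, and the brightest such probe set by the mean over the 6 arrays stood for it. This left 38 of the 42 among 19938 genes in all. Bcl2a1a, Bcl2a1b and Bcl2a1d, near-identical copies of a pro-survival gene, share 3 probe sets that each carry several symbols, so no value belongs to one of them alone, and Bax is not analysed here.

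Programmed cell death through mitochondria is set by the Bcl2 family. Pro-survival members (Bcl2, Bcl2l1 or Bcl-xL, Bcl2l2 or Bcl-w, Mcl1) hold back the pore-forming effectors Bax and Bak1, and BH3-only members such as Bcl2l11 (Bim), Bbc3 (Puma) and Pmaip1 (Noxa) oppose the pro-survival ones. Once the outer membrane is permeable, cytochrome c joins Apaf1 to activate caspase 9, while death receptors act through Fadd and caspase 8, which the caspase-like protein c-FLIP (Cflar) restrains. The inhibitor of apoptosis proteins Xiap, Birc2 and Birc3 curb caspases or steer receptor signals. In myeloid cells and acute myeloid leukaemia, dependence on Mcl1 or Bcl2 is well known.

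Each of the 6 arrays holds total RNA of whole bone marrow cells of 1 mouse with disease. The recipients were lethally irradiated CD45.1+ mice given CD45.2+ donor stem and progenitor cells (the LSK fraction) that had been transduced with Meis1 together with a GFP-linked HoxA9. In 3 mice HoxA9 was wild type (HoxA9wt/Meis1), and in 3 it was the form labelled HoxA9AA (HoxA9AA/Meis1), whose alteration the labels do not spell out. Both groups thus carry Meis1 and a HoxA9, there is no group without them, and no age, sorting or share of donor cells is given, so marrow of the host and differences in the mix of cells enter every value. In such bulk samples, fewer cells of a type and less RNA per cell cannot be told apart. Values are given in log2, so each unit stands for a doubling of the signal.

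Array medians over the 35556 probe sets ran from 6.73 to 6.85. Background was read from 1027 olfactory receptor genes, whose median per array ran from 4.80 to 4.88. Myeloid markers fitting the labelled tissue were far above it, as the mean level of the 8 primary granule markers lay at 9.72 to 10.48 in HoxA9wt/Meis1 and 10.17 to 11.27 in HoxA9AA/Meis1 mice. The mice of a group are not alike in these markers. Of 17 monocyte and macrophage markers, 16 had a lower mean in HoxA9AA/Meis1, and the list's mean level was 10.09 to 10.43 in HoxA9wt/Meis1 and 8.56 to 10.15 in HoxA9AA/Meis1 mice. Set against the HoxA9wt mean it stood at −1.66 and −1.25 in HoxA9AA replicates 1 and 3 and at −0.07 in replicate 2. Of 11 stem and progenitor markers 9 had a higher mean in HoxA9AA/Meis1, and the list stood at 0.36, 0.03 and 0.88 in replicates 1, 2 and 3. Among the 9 is Hoxa9 (difference 0.40), which was transduced, as was Meis1, so these values may include the introduced genes. The 2 with a lower mean were Meis1 (−0.08) and Flt3 (−0.96). Flt3 measured 6.92 in HoxA9AA replicate 1, against 9.87 to 10.85 on the other arrays. The 14 late neutrophil markers stood at −1.39 in HoxA9wt replicate 3, against 0.40 and 0.99 in the other HoxA9wt mice and 0.73, 1.08 and −0.58 in the HoxA9AA mice. Of the 14, 10 had a higher and 4 a lower mean in HoxA9AA/Meis1, with a median difference of 0.86. The lower ones include Mmp8 (−3.54) and Il1r2 (−1.86), which weigh on the list means. The list median stood at 1.39, 1.36 and 0.04 in HoxA9AA replicates 1, 2 and 3.

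37 of the 38 measured genes lay above the olfactory receptor median on all 6 arrays, and Casp12, a caspase tied to endoplasmic reticulum stress, lay above it on none (3.87 to 4.05), so it has no measured level. That bar is low, as a median is passed by many of the receptor genes themselves. The median of all values, 6.81, was reached by the mean of 32 members. Besides Casp12, it was not reached by Bcl2l2, Bik, Bbc3, Bcl2l14 and Endog, whose differences are thus between weak signals. No member passed the test between the groups (limma, Benjamini-Hochberg adjusted over all genes; smallest adjusted p 0.731), and neither did any other gene, as 0 of 19938 (0%) were called. Without HoxA9AA replicate 2, 48 genes were called, none of them a member. An unadjusted p under 0.05 was reached by 5 of 38 members (13.2%) and 1344 of all genes (6.74%). At an unadjusted p under 0.05 the members with lower values in HoxA9AA/Meis1 were Mcl1, Bnip3, Birc3 and Cflar, 4 of 38 (10.5%), where 2.59% of all genes met that mark. Casp2 was the 1 member (2.63%) with higher values at this mark, against 4.15% of all genes. After centring each array on its median the split was 3 higher (Bak1, Bcl2l14, Casp2) and the same 4 lower. In that setting 1419 of all genes met the mark in either direction.

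The 3 values of one group lay entirely above those of the other for 9 members, or 23.7%, beside 11.4% of all genes. Mcl1, Bnip3, Birc3 and Cflar were separated towards lower values (10.5%; all genes 4.8%). Separation towards higher values was seen for Bcl2, Bcl2l14, Casp2, Fadd and Endog (13.2%; all genes 6.6%). After quantile normalization Mcl1, Fadd and Endog were no longer separated, and after median centring Mcl1, Bcl2 and Fadd were not, which left 3 lower and 3 higher in each. Over all 38 genes the median difference, HoxA9AA/Meis1 minus HoxA9wt/Meis1, was −0.03, beside 0.01 over all genes, and 15 means were higher and 22 lower. With HoxA9AA replicate 2 left out, 14 members were separated. A group with fewer mice is parted more easily, and over all genes an unadjusted p under 0.05 rose there from 1344 to 2802 genes (limma). Separation over all genes was counted in the main setting only, so the other counts have no background beside them.

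**Figure D1:**
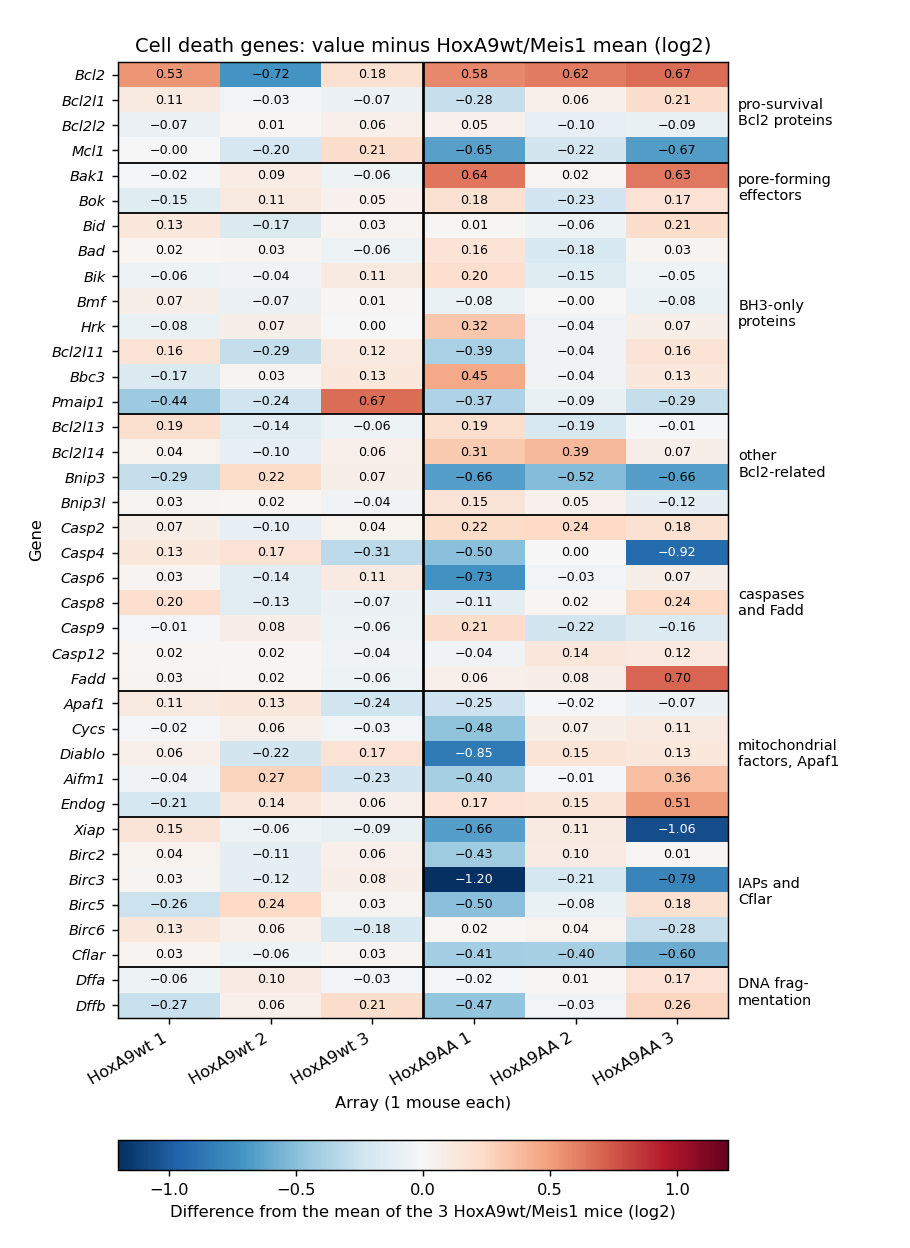
Difference of each value from the mean of the 3 HoxA9wt/Meis1 mice (log2, colour and number) for the 38 measured genes (vertical) on the 6 arrays (horizontal), in blocks by role; the HoxA9wt values are part of that mean. Bnip3 and Cflar are low in all 3 HoxA9AA mice (−0.66, −0.52, −0.66 and −0.41, −0.40, −0.60), while Birc3 and Xiap are low mainly in replicates 1 and 3.

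The 4 genes with lower values at that mark are shown with the DNA around their start. The windows come from RefSeq (GRCm38.p6) and are chr3:95658471-95658770 on the plus strand for Mcl1, chr1:58711241-58711540 on the plus strand for Cflar, chr9:7873121-7873420 on the minus strand for Birc3 and chr7:138909457-138909756 on the minus strand for Bnip3. Each is 300 bases long and holds the sequence before the annotated start and the first transcribed bases, and none of these 4 genes has a further window in the table. Capitals mark matches, on either strand, to any of 5 motifs: the NF-kB consensus, the hypoxia response core ACGTG, the CRE half-site TGACG, the Meis site TGACAG and the Hox-Pbx site TGATTNAT.
Mcl1: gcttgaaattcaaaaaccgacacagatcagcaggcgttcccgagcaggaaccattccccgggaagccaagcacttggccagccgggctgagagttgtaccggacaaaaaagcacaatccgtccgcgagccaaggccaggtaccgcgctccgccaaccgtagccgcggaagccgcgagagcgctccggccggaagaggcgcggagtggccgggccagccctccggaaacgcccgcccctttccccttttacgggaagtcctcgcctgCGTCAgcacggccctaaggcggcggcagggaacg
Cflar: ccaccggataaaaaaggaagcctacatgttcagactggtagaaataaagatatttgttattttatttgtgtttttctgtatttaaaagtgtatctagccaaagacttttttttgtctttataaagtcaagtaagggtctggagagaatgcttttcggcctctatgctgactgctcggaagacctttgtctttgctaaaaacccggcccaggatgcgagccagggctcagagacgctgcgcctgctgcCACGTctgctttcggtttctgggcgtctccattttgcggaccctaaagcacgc
Birc3: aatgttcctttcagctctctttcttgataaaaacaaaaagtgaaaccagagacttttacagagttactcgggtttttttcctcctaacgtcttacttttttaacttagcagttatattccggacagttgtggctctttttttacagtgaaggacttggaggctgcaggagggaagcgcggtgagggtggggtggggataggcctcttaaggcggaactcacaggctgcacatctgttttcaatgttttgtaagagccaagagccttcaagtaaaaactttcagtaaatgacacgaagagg
Bnip3: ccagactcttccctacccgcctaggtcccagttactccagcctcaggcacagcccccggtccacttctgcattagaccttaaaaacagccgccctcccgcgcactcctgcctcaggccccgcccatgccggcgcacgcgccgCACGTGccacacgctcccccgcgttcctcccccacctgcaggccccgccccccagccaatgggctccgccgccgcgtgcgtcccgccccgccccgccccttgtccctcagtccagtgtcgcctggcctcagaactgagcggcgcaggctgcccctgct
Mcl1 holds a CRE half-site on the opposite strand that begins at base 17 of the transcript. Cflar holds the hypoxia response core on the opposite strand, beginning at base −3 from the start. Bnip3 holds that core on both strands, at −108 and −107, as 2 overlapping readings of 1 palindrome. Birc3 holds none of the 5 motifs in this window. The core ACGTG is found in 19.6% of all 32851 windows, the CRE half-site in 20.8%, the NF-kB consensus in 8.46%, the Meis site in 19.2% and the Hox-Pbx site in 3.22%. Among the 48 windows of the 35 members in the table, these shares are 20.8%, 29.2%, 18.8%, 16.7% and 0%. The G and C content is 65.7% for Mcl1 and 71.7% for Bnip3, against 45% for Cflar and 43% for Birc3, with a median of 52.7% over all windows.

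Among the pro-survival Bcl2 proteins, Mcl1 and Bcl2 lay on opposite sides. Mcl1, a short-lived protein that granulocytes and many leukaemias need, measured 11.05, 10.85 and 11.26 in the HoxA9wt/Meis1 mice and 10.40, 10.83 and 10.38 in the HoxA9AA/Meis1 mice. The groups did not overlap, but HoxA9AA replicate 2 lay 0.02 below the lowest HoxA9wt mouse, and the other two were well below. Means were 11.05 ± 0.21 (SD, n = 3) and 10.54 ± 0.25, a difference of −0.52 ± 0.17 (SE), or 1.43-fold lower. With limma the unadjusted p was 0.0185 and the adjusted p 0.731. With 1 array left out the difference ranged from −0.66 to −0.41, and it missed the unadjusted mark without HoxA9wt replicate 3, HoxA9AA replicate 1 or HoxA9AA replicate 3. After quantile normalization or centring the groups touched or overlapped.

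Bcl2, the founding member of the family, measured 8.71, 7.46 and 8.36 in HoxA9wt/Meis1 and 8.76, 8.80 and 8.85 in HoxA9AA/Meis1 mice. The 3 HoxA9AA mice were nearly identical and lay above all HoxA9wt mice, of which replicate 2 was far below the others and replicate 1 only 0.05 below the nearest HoxA9AA mouse. The difference of 0.63 ± 0.30 (SE; limma, adjusted p = 0.737) has a 95% interval of −0.10 to 1.35, and without HoxA9wt replicate 2 it was 0.27. HoxA9wt replicate 2 was also the mouse with the highest level of the 8 erythroid markers (7.99, against 6.53 for the lowest HoxA9wt mouse and 6.38 to 6.50 in HoxA9AA mice); their part in the Bcl2 value was not tested.

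The groups overlapped in the other pro-survival genes. Bcl2l1, which keeps erythroid and many other cells alive, measured 7.38 to 7.56 in HoxA9wt/Meis1, and 7.17, 7.51 and 7.66 in HoxA9AA/Meis1 mice, so that replicate 1 was the lowest and replicate 3 the highest of all. Its difference was −0.01 (95% interval −0.35 to 0.34), with a positive sign after median centring (0.018). Bcl2l2 measured 6.60 to 6.73 and 6.57 to 6.72, a difference of −0.05 (interval −0.26 to 0.17).

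Of the pore-forming effectors, Bak1 had the larger difference. It measured 9.39, 9.50 and 9.35 in HoxA9wt/Meis1 mice and 10.05, 9.43 and 10.04 in HoxA9AA/Meis1 mice. HoxA9AA replicates 1 and 3 were thus about equal and high, and replicate 2 lay within the HoxA9wt range, so the groups overlapped. The difference was 0.43 ± 0.18 (SE; limma, adjusted p = 0.731). Without HoxA9AA replicate 2 it was 0.63 (adjusted p = 0.0807; 0.0807 to 0.998 over the arrays left out in turn). Bok, a relative of Bax and Bak1 that acts with less dependence on the pro-survival proteins, measured 7.13 to 7.39 and 7.05 to 7.46 (difference 0.04, interval −0.31 to 0.38).

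None of the 8 BH3-only genes met the unadjusted mark or had separated groups, and their differences ran from −0.25 to 0.18 with a median of 0.00. Pmaip1, whose product neutralises Mcl1, measured 7.54, 7.74 and 8.65 in HoxA9wt/Meis1 and 7.61, 7.89 and 7.69 in HoxA9AA/Meis1 mice. HoxA9wt replicate 3, the mouse with the lowest late neutrophil markers (−1.39), alone was high, and the difference of −0.25 became 0.09 without it; the part of those markers was not tested. Bbc3, a p53 target, measured 5.85 to 6.15 and 6.47, 5.98 and 6.15, with replicate 1 of HoxA9AA highest (difference 0.18, interval −0.18 to 0.55). Hrk measured 7.67 to 7.82 and 8.07, 7.71 and 7.82, again with HoxA9AA replicate 1 highest (difference 0.12).

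Bcl2l11, the BH3-only protein most tied to the death of blood cells that lose cytokine signals, measured 7.65, 7.20 and 7.61 in HoxA9wt/Meis1 and 7.10, 7.45 and 7.65 in HoxA9AA/Meis1 mice. The ranges largely overlapped, and the difference was −0.09 (interval −0.53 to 0.36). Bid, which caspase 8 cleaves to link death receptors to mitochondria, differed by 0.06 (interval −0.23 to 0.34) and Bad, which growth factor signals keep inactive by phosphorylation, by 0.01 (−0.26 to 0.27). Bik differed by −0.003 (interval −0.29 to 0.28; 0.025 after quantile normalization and 0.022 after centring) and Bmf by −0.06 (−0.26 to 0.14).

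Set against each other as list means, pro-survival and pro-death genes gave no parted groups, although Mcl1 and Bcl2 were each parted singly. The 3 Bcl2a1 copies and Bax are missing from these means. The mean over the 4 pro-survival genes of the difference from the HoxA9wt mean was 0.14, −0.24 and 0.09 in the HoxA9wt mice and −0.08, 0.09 and 0.03 in the HoxA9AA mice. For the 10 pro-death genes (effectors and BH3-only) it was −0.05, −0.05 and 0.10, and 0.11, −0.08 and 0.10. The median difference between the groups was −0.03 for the pro-survival and 0.02 for the pro-death genes, next to 0.01 over all genes, and 1 of 4 pro-survival and 6 of 10 pro-death means were higher in HoxA9AA/Meis1. The pro-survival median is set by the middle genes, Bcl2l1 and Bcl2l2, and does not reflect Mcl1 (−0.52) and Bcl2 (0.63), which lie at its far ends. It was 0.018 without HoxA9AA replicate 1. Without HoxA9AA replicate 2 the pro-death median was 0.106.

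**Figure D2:**
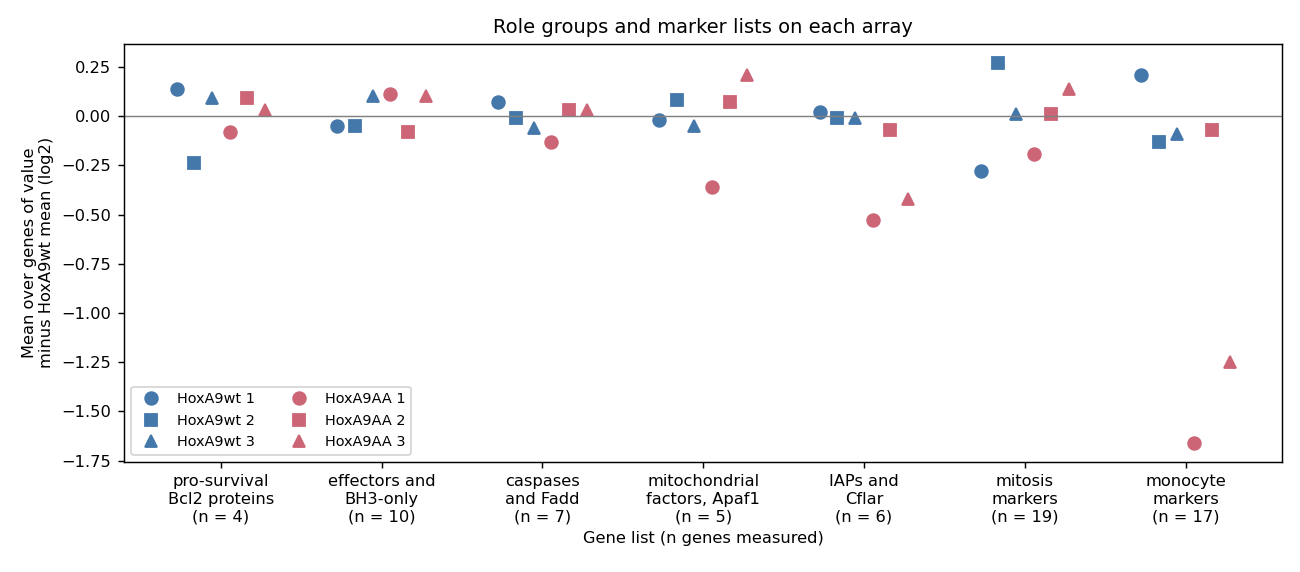
Mean over the genes of a list of the value minus the HoxA9wt mean (log2, vertical) on each array, for 5 role groups of the cell death genes and 2 marker lists (horizontal); blue symbols are HoxA9wt mice and red symbols HoxA9AA mice, with circle, square and triangle for replicates 1, 2 and 3. The inhibitors with Cflar stand at −0.53 and −0.42 in HoxA9AA replicates 1 and 3, the 2 mice in which monocyte markers stand at −1.66 and −1.25. Primary granule markers, not drawn, stand at 1.16 and 0.22 in these mice, and the part of either list was not tested.

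The 4 other Bcl2-related genes include Bnip3, which had the largest difference of this group. Bnip3, a mitochondrial protein induced by low oxygen that takes part in removing mitochondria, measured 9.13, 9.64 and 9.49 in HoxA9wt/Meis1 and 8.76, 8.90 and 8.76 in HoxA9AA/Meis1 mice. All 3 HoxA9AA mice were low and within 0.14 of each other, and HoxA9wt replicate 1 lay nearest to them. Means were 9.42 ± 0.26 (SD, n = 3) and 8.81 ± 0.08, a difference of −0.61 ± 0.14 (SE), or 1.53-fold lower (limma, unadjusted p = 0.00456, adjusted p = 0.731). A second Bnip3 probe set, like the first paired with 1 RefSeq transcript in the annotation, gave 8.72, 9.19 and 9.17 against 8.72, 8.66 and 8.41. There the groups met at 8.72, and the difference was −0.43 ± 0.16 (unadjusted p = 0.0338).

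Bnip3l (Nix), the close relative of Bnip3 that clears mitochondria from maturing red cells, lay at 11.74 to 12.01 on all arrays, with a difference of 0.02 that was −0.05 on its other probe set. Bcl2l14 measured 6.42, 6.28 and 6.44 in HoxA9wt/Meis1 and 6.69, 6.77 and 6.45 in HoxA9AA/Meis1 mice. Its groups were parted by only 0.01, between HoxA9wt replicate 3 and HoxA9AA replicate 3, and the difference was 0.26 ± 0.11 (SE; limma, adjusted p = 0.731). For Bcl2l13, a mitochondrial receptor, the mean was 7.36 in both groups (interval −0.33 to 0.33).

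**Figure D3:**
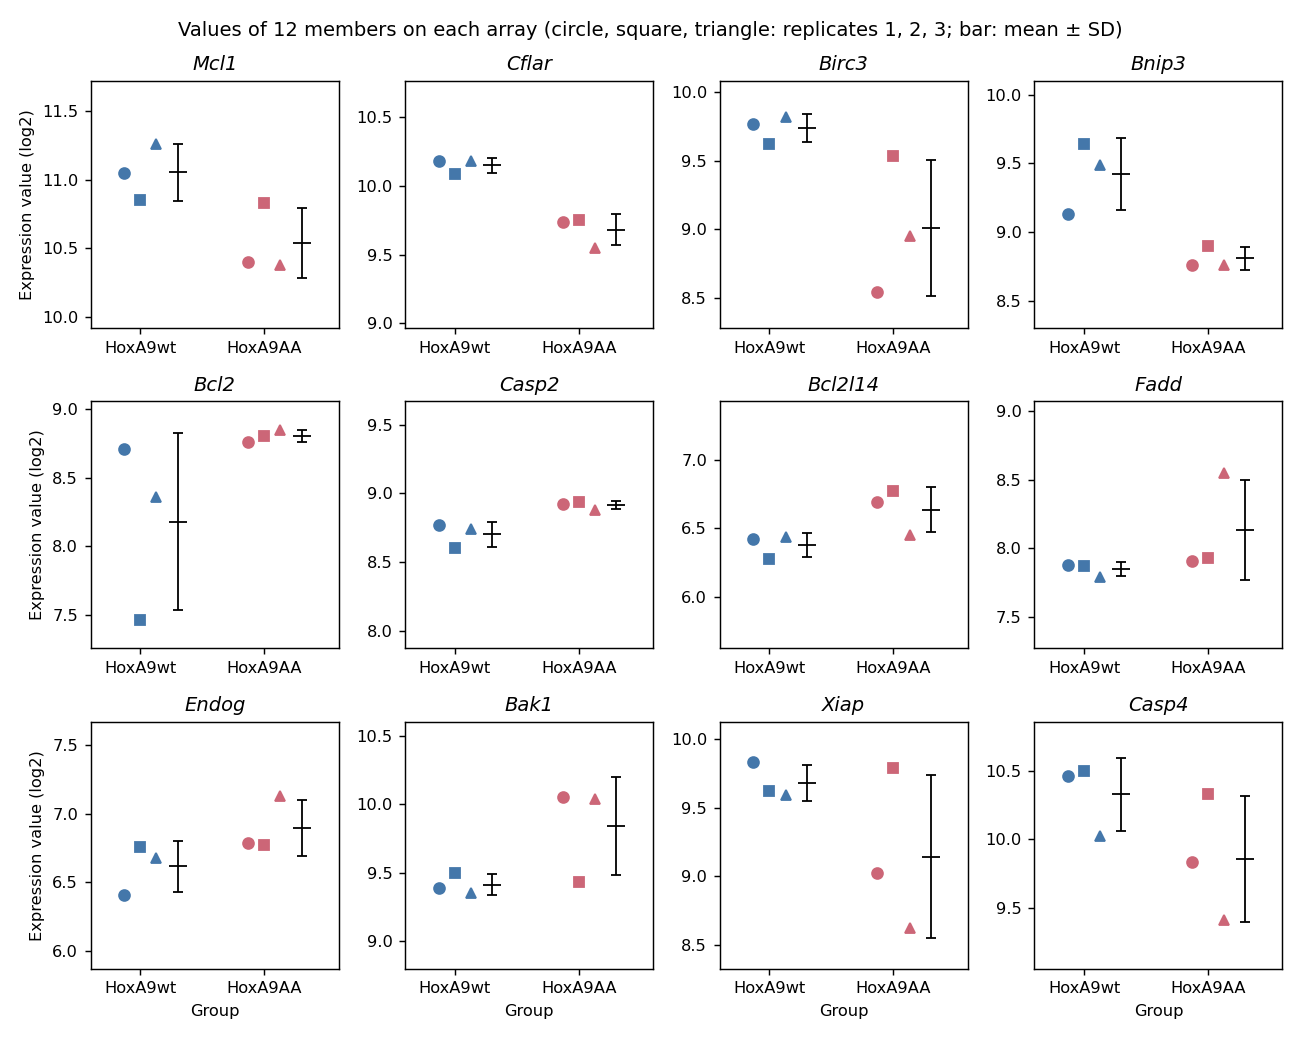
Expression values (log2, vertical) of 12 members in the 2 groups (horizontal), 1 panel per gene with axes of equal length; symbols are single mice and bars the mean ± SD (n = 3). The first 9 panels are the genes whose groups do not overlap; in Bak1, Xiap and Casp4, HoxA9AA replicate 2 (square; 9.43, 9.79 and 10.33) lies among the HoxA9wt mice.

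The 6 caspases among the members had differences of −0.47 to 0.21, and the groups were apart in Casp2 alone among them. Casp2, a nuclear initiator caspase linked to DNA damage and chromosome number, measured 8.77, 8.60 and 8.74 in HoxA9wt/Meis1 and 8.92, 8.94 and 8.88 in HoxA9AA/Meis1 mice. All 3 HoxA9AA mice lay above, and within 0.06 of each other. The difference of 0.21 ± 0.09 (SE), 1.16-fold, had an unadjusted p of 0.0473 and an adjusted p of 0.731 (limma), and it missed the unadjusted mark with any 1 array left out. With all arrays it also missed it after quantile normalization (limma, unadjusted p = 0.0566) and among genes at or above the median value (0.11). The same held with a replicate block (0.133) and with trend and robust eBayes (0.19). It met the mark after median centring (0.033) and with the mean of probe sets (0.0466).

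Casp4, the mouse inflammatory caspase 11 that senses lipopolysaccharide, measured 10.46, 10.50 and 10.02 in HoxA9wt/Meis1 and 9.83, 10.33 and 9.41 in HoxA9AA/Meis1 mice. HoxA9AA replicates 1 and 3 were the lowest and replicate 2 lay inside the HoxA9wt range, so the groups overlapped (difference −0.47 ± 0.25, SE; limma, adjusted p = 0.764). It was −0.71 without HoxA9AA replicate 2 and −0.25 without HoxA9AA replicate 3. Casp6, an executioner caspase, was low in HoxA9AA replicate 1 alone, at 6.35 against 6.94 to 7.19 on the other arrays. Its difference of −0.23 became 0.02 without that array.

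The initiator caspase of death receptors, Casp8, measured 11.03 to 11.36 in HoxA9wt/Meis1 and 11.05 to 11.40 in HoxA9AA/Meis1 mice (difference 0.05, interval −0.27 to 0.37). Its adaptor Fadd measured 7.88, 7.87 and 7.79 against 7.91, 7.93 and 8.55. The groups were apart by 0.03 only, and the difference of 0.28 ± 0.18 (SE; limma, adjusted p = 0.810) rested on HoxA9AA replicate 3, without which it was 0.07. Casp9, the initiator of the mitochondrial route, measured 7.21 to 7.35 and 7.05 to 7.48 (difference −0.06, interval −0.38 to 0.26).

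The apoptosome gene Apaf1 and the factors released from mitochondria had lower means for 4 of 5 genes, and 3 of these changed sign when 1 mouse, HoxA9AA replicate 1, was left out. Cycs, cytochrome c, measured 11.91 to 12.00 in HoxA9wt/Meis1 and 11.46, 12.01 and 12.05 in HoxA9AA/Meis1 mice. These values are of its brightest probe set. Its other probe sets measured 11.14 to 11.75 (difference −0.19) and 6.29 to 6.91 (0.05) over all arrays, so the level depends on the probe set. Diablo (Smac), which frees caspases from Xiap, measured 6.86 to 7.25 and 6.23, 7.23 and 7.21. In both genes HoxA9AA replicate 1 was the lowest of the 6 mice and the other HoxA9AA mice were at HoxA9wt levels.

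Without HoxA9AA replicate 1 the difference of Cycs went from −0.10 to 0.09 and that of Diablo from −0.19 to 0.14. Aifm1, the apoptosis-inducing flavoprotein that also serves respiration, measured 8.70 to 9.20 and 8.53, 8.92 and 9.29 (difference −0.02, 0.008 after median centring, and 0.175 without that array). Apaf1 measured 10.27 to 10.64 and 10.26 to 10.49 (difference −0.11, interval −0.43 to 0.20). Endog, a mitochondrial nuclease, was separated towards higher values, at 6.41, 6.76 and 6.68 against 6.79, 6.77 and 7.13. The gap between the groups was 0.01, and the difference was 0.28 ± 0.14 (SE; limma, adjusted p = 0.753). It was 0.16 without HoxA9AA replicate 3 and 0.18 without HoxA9wt replicate 1, and after quantile normalization the groups were not apart.

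All 6 members listed as inhibitors of apoptosis and c-FLIP had a lower mean in HoxA9AA/Meis1 marrow, with a median difference of −0.30 beside 0.01 over all genes. The signs of Birc2 and Birc5 turned without HoxA9AA replicate 1 (0.058 and 0.047), and that of Birc6 without HoxA9AA replicate 3 (0.027). Birc3 (cIAP2), a ubiquitin ligase of tumour necrosis factor signalling and a classical NF-kB target, measured 9.77, 9.62 and 9.82 in HoxA9wt/Meis1 and 8.54, 9.53 and 8.95 in HoxA9AA/Meis1 mice. HoxA9wt mice lay within 0.20 of each other, and the HoxA9AA mice were spread below them, replicate 1 lowest and replicate 2 close to the HoxA9wt values. The difference of −0.73 ± 0.24 (SE), or 1.66-fold lower, was the largest of all members (limma, unadjusted p = 0.0213, adjusted p = 0.731). Without HoxA9AA replicate 2 it was −0.99 (adjusted p = 0.0808) and without replicate 1 it was −0.50, with adjusted p of 0.0808 to 0.998 over the arrays left out in turn. It missed the unadjusted mark without HoxA9wt replicate 1 or 3 or HoxA9AA replicate 3.

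Xiap, the direct caspase inhibitor, measured 9.83, 9.62 and 9.59 in HoxA9wt/Meis1 and 9.02, 9.79 and 8.62 in HoxA9AA/Meis1 mice. Replicates 1 and 3 of HoxA9AA lay far below all others and replicate 2 among the HoxA9wt mice, so the groups overlapped (difference −0.54 ± 0.29, SE; limma, adjusted p = 0.763). The difference was −0.86 without HoxA9AA replicate 2 and −0.28 without HoxA9AA replicate 3. Birc2 (cIAP1), the neighbour and relative of Birc3, measured 8.52 to 8.69 and 8.20, 8.73 and 8.64, a difference of −0.10 (interval −0.47 to 0.27).

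Birc5 (survivin), which acts in chromosome segregation with Aurkb, Cdca8 and Incenp, measured 9.88, 10.38 and 10.17 in HoxA9wt/Meis1 and 9.64, 10.06 and 10.32 in HoxA9AA/Meis1 mice. The groups overlapped (difference −0.14, interval −0.63 to 0.36). Aurkb differed by 0.02, Cdca8 by 0.07 and Incenp by 0.46 (limma, adjusted p = 0.731 to 0.994). Incenp, at 8.66 to 8.99 against 9.06 to 9.68, had an unadjusted p of 0.0403 (limma). It was the 1 of 19 mitosis markers to meet the unadjusted mark, where 4.15% of all genes met it towards higher values. The 19 mitosis markers had a median difference of 0.02, with 10 means higher and 9 lower. Birc6, a large ubiquitin ligase of the same family, measured 10.14 to 10.45 and 10.04 to 10.36 (difference −0.08, interval −0.39 to 0.24).

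Cflar had the smallest unadjusted p of all members. It measured 10.18, 10.09 and 10.18 in HoxA9wt/Meis1 mice and 9.74, 9.75 and 9.55 in HoxA9AA/Meis1 mice. Every HoxA9AA mouse, replicate 2 included, lay at least 0.34 below every HoxA9wt mouse. Means were 10.15 ± 0.05 (SD, n = 3) and 9.68 ± 0.11, a difference of −0.47 ± 0.09 (SE), or 1.39-fold lower (limma, unadjusted p = 0.00186, adjusted p = 0.731). It lay between −0.505 and −0.405 with any 1 array left out.

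The other 2 probe sets of Cflar did not show this. One measured 9.95, 9.87 and 9.88 in HoxA9wt/Meis1 and 9.89, 9.91 and 9.77 in HoxA9AA/Meis1 mice (difference −0.04 ± 0.08, SE), and the other 9.04, 8.82 and 8.85 against 9.02, 8.84 and 8.81 (−0.01 ± 0.11). In the platform annotation the bright probe set is paired with 4 of the gene's RefSeq transcripts, and the others with 5 and 4. With the mean of the 3 probe sets the difference was −0.18 (limma, unadjusted p = 0.0934). The lower value thus belongs to 1 probe set, and which transcripts it reports was not tested.

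**Figure D4:**
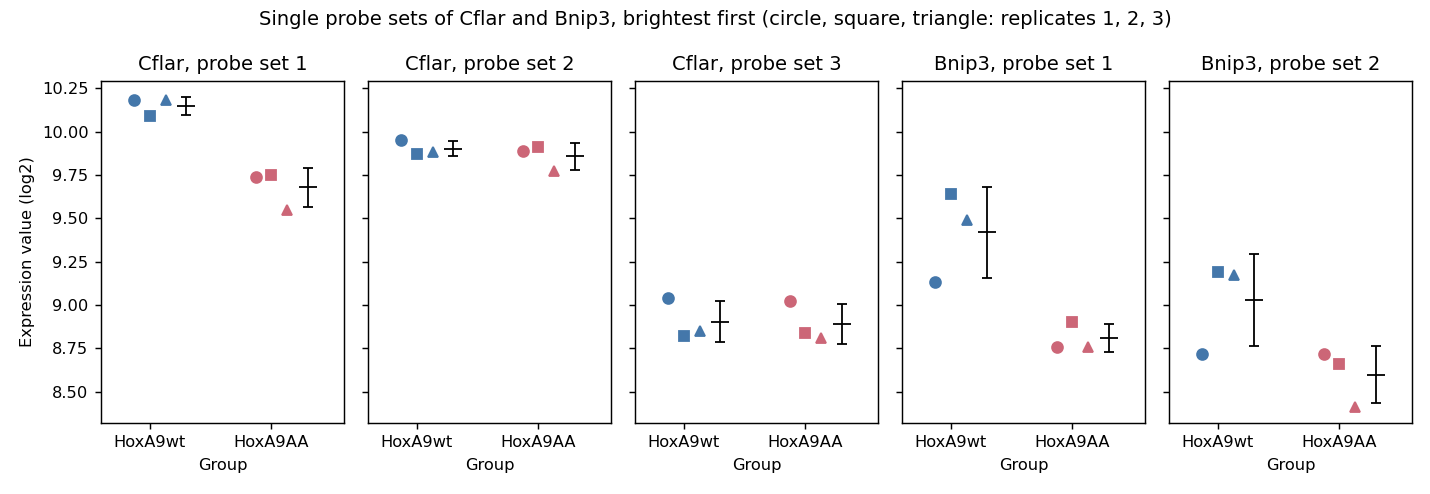
Expression values (log2, vertical) of the 3 probe sets of Cflar and the 2 of Bnip3, brightest first, in the 2 groups (horizontal); symbols are single mice (circle, square and triangle for replicates 1, 2 and 3) and bars the mean ± SD (n = 3). The groups part on the first Cflar probe set (−0.47) and not on the other two (−0.04 and −0.01), whereas both Bnip3 probe sets have lower means (−0.61 and −0.43).

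The 2 subunits of the DNA fragmentation factor, whose nuclease Dffb cuts chromatin once caspases cleave its inhibitor Dffa, had overlapping groups. Dffa measured 7.38 to 7.54 in HoxA9wt/Meis1 and 7.42 to 7.61 in HoxA9AA/Meis1 mice (difference 0.05, interval −0.18 to 0.28). Dffb measured 6.79 to 7.27 and 6.59 to 7.32, lowest in HoxA9AA replicate 1 and highest in HoxA9AA replicate 3 (difference −0.08, interval −0.59 to 0.43).

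The members were spread more widely among HoxA9AA/Meis1 mice, as most genes were. The SD was larger in that group for 31 of 38 members (81.6%) and 70.8% of all genes, with a median SD of 0.20 against 0.13. HoxA9AA replicate 1 was below all HoxA9wt mice for 17 members (44.7%; all genes 26.4%) and above them for 13 (34.2%; all genes 40.2%). It held the lowest of the 6 values for 13 members (34.2%; all genes 19.7%). HoxA9AA replicate 2 was the HoxA9AA mouse nearest to the HoxA9wt mean for 23 members (60.5%; all genes 48.5%). Mcl1, Birc3, Xiap, Casp4 and, in the other direction, Bak1, singled out after their values were seen, have replicate 2 nearest the HoxA9wt mean. The same holds for the means of several marker lists in HoxA9AA replicates 1, 2 and 3. These include the monocyte (−1.66, −0.07, −1.25), primary granule (1.16, 0.06, 0.22) and stem and progenitor (0.36, 0.03, 0.88) lists. It does not hold for the late neutrophil (0.73, 1.08, −0.58) or erythroid (−0.61, −0.63, −0.74) list, among others. The part of any of these markers in the values was not tested.

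Some members sit on chromosome 2, where HoxA9AA replicate 1 is low over many neighbouring genes. Each member was set beside up to 20 genes before and 20 after it in gene order, those with a HoxA9wt mean of 8 or more, on the same array. The neighbours were thus chosen by the level from which the differences are taken. Genes low in HoxA9wt and higher in HoxA9AA were left out, which can pull the HoxA9AA neighbour medians down. How far was not tested. Over all genes the median stood at 0.05, −0.02 and 0.00 in HoxA9AA replicates 1, 2 and 3. Around Bmf the median of the 40 neighbours was −0.98 from the HoxA9wt mean in HoxA9AA replicate 1, with 38 of 40 below, while Bmf itself was at −0.08. Around Bcl2l11 the neighbours stood at −0.84 and the gene at −0.39, and around Bcl2l1 at −0.75 and −0.28. All 3 genes thus stood less far below the HoxA9wt mean than these neighbours did in that mouse. Their own HoxA9wt means (7.82, 7.49 and 7.45) were under the 8 asked of the neighbours, so genes of unlike level are compared. Around Endog, also on chromosome 2, the neighbours stood at 0.00 there, and in HoxA9AA replicate 3 at 0.39 beside 0.51 for the gene.

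For the members on other chromosomes the neighbour medians in HoxA9AA replicate 1 reached −0.41 at the lowest, around Cflar and Casp8. Cflar was at −0.41 in HoxA9AA replicate 1, as were its neighbours on chromosome 1, whereas these stood at 0.02 and −0.09 in replicates 2 and 3, where Cflar was at −0.40 and −0.60. Birc3 was at −1.20 in replicate 1 with its 30 neighbours at −0.28, and Xiap on the X chromosome at −0.66 with neighbours at −0.34. Around Bak1 the neighbours stood at 0.05 in replicate 1 and 0.36 in replicate 3, with the gene at 0.64 and 0.63. Around Mcl1 and Bnip3 the neighbours lay between −0.09 and 0.09 on all arrays. In HoxA9wt arrays the neighbour medians lay between −0.09 and 0.12 for all 38 members. These arrays make up the mean from which the differences are taken, which holds their values near it.

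**Figure D5:**
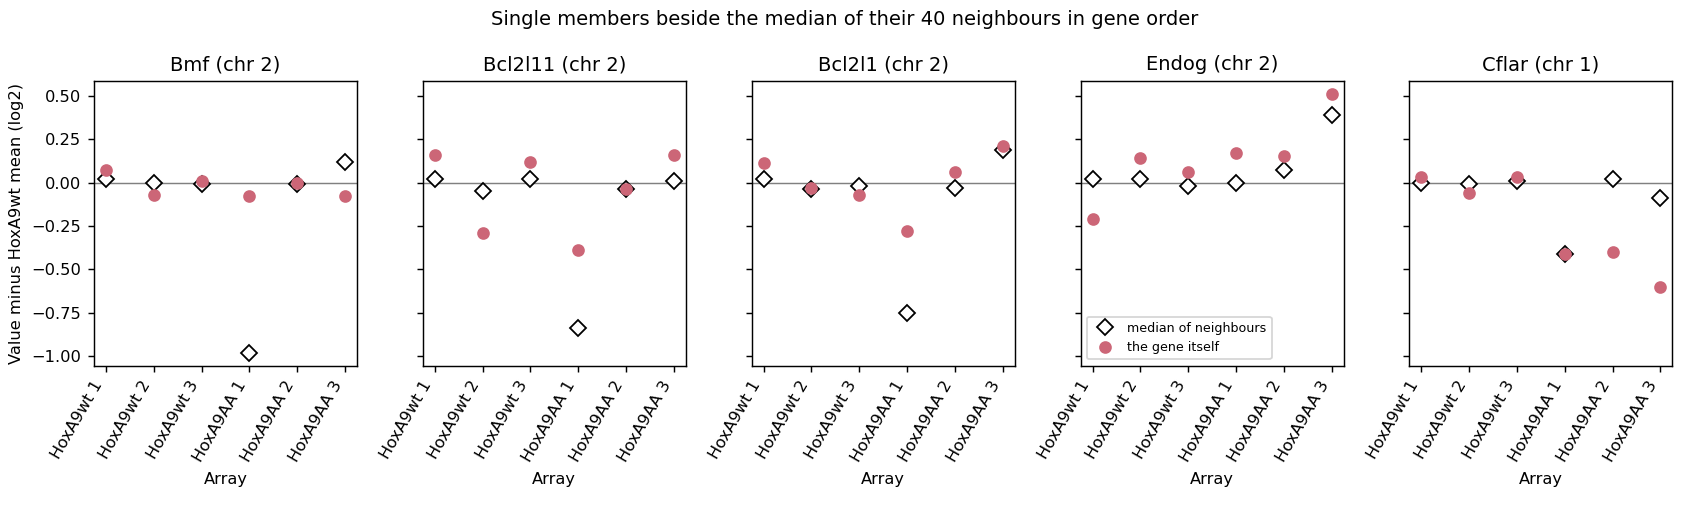
Value minus the HoxA9wt mean (log2, vertical) on each array (horizontal) for 4 members of chromosome 2 and for Cflar (filled circles), beside the median of the 40 expressed neighbours in gene order (open diamonds). In HoxA9AA replicate 1 the neighbours of Bmf, Bcl2l11 and Bcl2l1 stand at −0.98, −0.84 and −0.75, below the genes themselves. The neighbours have a HoxA9wt mean of 8 or more, which these genes do not reach.

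Of 37 further cell death genes, 15 had a higher and 22 a lower mean (median −0.05), and 2 met the unadjusted mark, both higher, where 4.15% of all genes met it in that direction. Tnfrsf1a, the main receptor for tumour necrosis factor, measured 8.22 to 8.38 in HoxA9wt/Meis1 and 8.50 to 8.61 in HoxA9AA/Meis1 mice (difference 0.28 ± 0.09, SE; limma, adjusted p = 0.731). Ppif, the cyclophilin of the mitochondrial permeability pore, measured 7.33 to 7.62 and 7.68 to 8.06 (0.43 ± 0.13, adjusted p = 0.731). Of 19 genes of the p53 pathway 12 had a lower mean (median −0.15), and the 3 that met the mark were lower, with groups apart and adjusted p of 0.731 each (limma). Of all genes, 2.59% were lower at this mark and 4.8% had groups apart towards lower values. They are Zmat3 (−0.38 ± 0.12), Ei24 (−0.39 ± 0.14) and Phlda3, which measured 6.74 to 6.86 and 6.55 to 6.58 (−0.25 ± 0.08).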

How the data were processed

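The samples are 6 Affymetrix mouse gene arrays, 3 mice per group, called biological replicates in the labels. The authors deposited log2 values with 2 decimals, made with oligo and RMA (background correction, quantile normalization, probe set summary) per the submitters' processing notes; the sources used here give no tool version and no build. Of 35556 probe sets, 21789 had 1 symbol in the platform annotation, 1621 had several and 12146 were not listed, and those with several or none were left out. The brightest probe set stood for each of 19938 genes. Both groups entered 1 limma 3.58.1 fit (R 4.3.3; lmFit, eBayes, two-sided, no block), Benjamini-Hochberg adjusted over all genes at 0.05. The fit was tested on simulated data. Every member was described. Gene order came from a RefSeq table (GRCm38.p6), whose coordinates served only for gene order and promoter windows. The members and gene lists were chosen with earlier results of these data known. Other settings were a replicate block, each array left out, quantile normalization, median centring, genes at or above the median value (6.81), the mean of probe sets, and eBayes with trend and robust; single probe sets were added after seeing the data. Figures used matplotlib 3.10.9.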

Additional observations from a re-analysis of the deposited data

How the results depend on the processing

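No member passed the adjusted test under any of these settings. The number at an unadjusted p under 0.05 was 5, where 1344 of 19938 genes met that mark (limma). With 1 array left out it was 2 to 7. It was 2 without HoxA9wt replicate 3, where 608 of all genes met the mark. It was 3 without HoxA9AA replicate 1 or 3, where 1307 and 1062 did. The 7 came without HoxA9AA replicate 2, where 2802 did. The number with separated groups was 9, beside 11.4% of all genes. It was 6 after quantile normalization and 6 after median centring (3 higher and 3 lower in each), and 9 to 14 with 1 array left out. For these settings the share of all genes was not counted. The pro-death median was 0.022, and 0.106 without HoxA9AA replicate 2, with −0.014 to 0.106 over the arrays left out.

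Of the 38 members 18 kept their sign throughout and 19 did not, and Bcl2l13, whose difference was 0, ranged from −0.097 to 0.097 with 1 array left out. Signs turned after median centring for Bcl2l1 (0.018), Bik (0.022) and Aifm1 (0.008), after quantile normalization for Bik (0.025), with the mean of probe sets for Bnip3l (−0.013), and on another probe set for Bnip3l (−0.05), Cycs (0.05) and Birc2 (0.03). With 1 array left out the differences ranged as follows. The Bcl2 family gave −0.113 to 0.132 for Bcl2l1, −0.04 to 0.172 for Bok, −0.027 to 0.123 for Bid, −0.072 to 0.098 for Bad, −0.103 to 0.072 for Bik, −0.23 to 0.063 for Bcl2l11, −0.465 to 0.09 for Pmaip1 and −0.038 to 0.097 for Bnip3l. Caspases and mitochondrial factors gave −0.38 to 0.02 for Casp6, −0.045 to 0.15 for Casp8, −0.193 to 0.022 for Casp9, −0.208 to 0.087 for Cycs, −0.363 to 0.137 for Diablo and −0.205 to 0.175 for Aifm1. The rest gave −0.207 to 0.058 for Birc2, −0.293 to 0.047 for Birc5, −0.168 to 0.027 for Birc6, −0.008 to 0.098 for Dffa and −0.25 to 0.115 for Dffb. The cause was not tested.

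Same-numbered mice did not deviate together (r = −0.208, −0.103 and −0.013 over genes), so the numbers were not taken as pairs. With the replicate number as a block, 0 members passed the adjusted test. The unadjusted mark was met by 5 members and 1117 of 19938 genes, and Casp4 replaced Casp2 (limma, unadjusted). Precision is limited by 3 mice per group.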

Other observations

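Gsdme, a pore-forming gasdermin that caspases can cleave, measured 9.27, 8.82 and 9.12 in HoxA9wt/Meis1 and 7.74, 9.34 and 8.22 in HoxA9AA/Meis1 mice, so that HoxA9AA replicate 2 was the highest and replicates 1 and 3 the lowest (limma, adjusted p = 0.800). Gsdmd, the gasdermin of inflammatory caspases, was low in HoxA9AA replicate 1 alone, at 7.51 against 8.29 to 8.66 elsewhere (adjusted p = 0.976). Mlkl, the pore-forming protein of necroptosis, was lowest in HoxA9AA replicate 1 (9.40) and highest in replicate 3 (10.82), with HoxA9wt mice at 10.04 to 10.51 (adjusted p = 0.994). These 3 genes, all with roles in lytic cell death, were singled out after their values were seen.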
